A study of Rattus norvegicus with 4 samples.

Results

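A stretch of 150 kb on rat chromosome 10, between 55.8 and 55.95 Mb in build rn4, was examined for binding of the glucocorticoid receptor (GR) in the hippocampus. It was taken because it was expected to hold Per1 and because it contains the region with the highest GR read count after the lower of the corticosterone doses. That region, called the site below, is 700 bases wide and has its centre at 55856450. No rn4 annotation was used here, so whether the site lies in or near Per1 was not checked, and every region is given by its coordinates. The interval held 314 of the 1875208 deposited reads: 131 GR and 45 IgG reads after 3000 µg/kg, the high dose, and 97 GR and 41 IgG reads after 300 µg/kg, the low dose. With read ends moved 75 bases in the direction of reading, as in all region counts below, the high-dose IgG library had 46 reads in the interval and the other libraries kept their numbers. The reads of the site chose it, so its values are given as a description and without a test.

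GR is a hormone-gated transcription factor that enters the nucleus once corticosterone occupies it and binds DNA, often at a palindromic glucocorticoid response element. The hippocampus is rich in GR and in the related mineralocorticoid receptor. Per1 (period circadian regulator 1) encodes a repressor in the negative limb of the circadian clock, and in many tissues its transcription rises after glucocorticoids. ChIP-seq counts the DNA fragments that an antibody pulls down with its protein.

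All libraries came from the hippocampus of male Sprague-Dawley rats, 8 weeks old, that had been adrenalectomized 3 days earlier, so that every group, controls included, lacked adrenal corticosterone of its own. The rats were killed 1 hour after an intraperitoneal injection of corticosterone in a cyclodextrin complex at 300 or 3000 µg/kg, with 6 animals per group. Sheared chromatin of 6 hemispheres was pooled, and portions of the same pools received the GR antibody H-300 or normal rabbit IgG, the background control. The design thus holds 4 libraries, 1 for each antibody and dose, each of which stands for a pool of animals. An undisturbed group named in the labels was not analysed here. Each library was deposited as 468802 reads, of which 458480 to 461308 lay on chromosomes 1 to 20 and X. There is no replicate, so that a p-value sets 1 library against another and says nothing of doses or antibodies as conditions. Intervals (exact, 95%) cover counting error only. On reads, intervals and p-values take each read as independent. Where reads are ends of the same fragment, such intervals are too narrow and such p-values too small.

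The high-dose GR library had 45 reads in the site (Poisson interval 32.8 to 60.2), and the low-dose GR library had 28 (18.6 to 40.5). The IgG libraries held 1 read at the high dose (0.0253 to 5.57) and 2 reads at the low dose (0.242 to 7.22). Both GR libraries were thus high and both IgG libraries low, which is how the site was chosen. An even spread of reads over the chromosomes would place between 0.118 and 0.119 reads of any library in these 700 bases.

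At equal library size the GR to IgG ratio of the site was 44.8 (7.64 to 1808) at the high dose and 13.98 (3.53 to 121.1) at the low dose. With the ends of a fragment counted once, as described below, the ratios were 24.2 (4.00 to 989.2) and 16.6 (2.59 to 691.9), so that the high-dose value depended on the counting. The upper bounds are wide because each rests on 1 or 2 IgG reads. The site took 34.4% of the interval's GR reads at the high dose and 28.9% at the low dose, against 2.17% and 4.88% of its IgG reads.

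**Figure D1:**
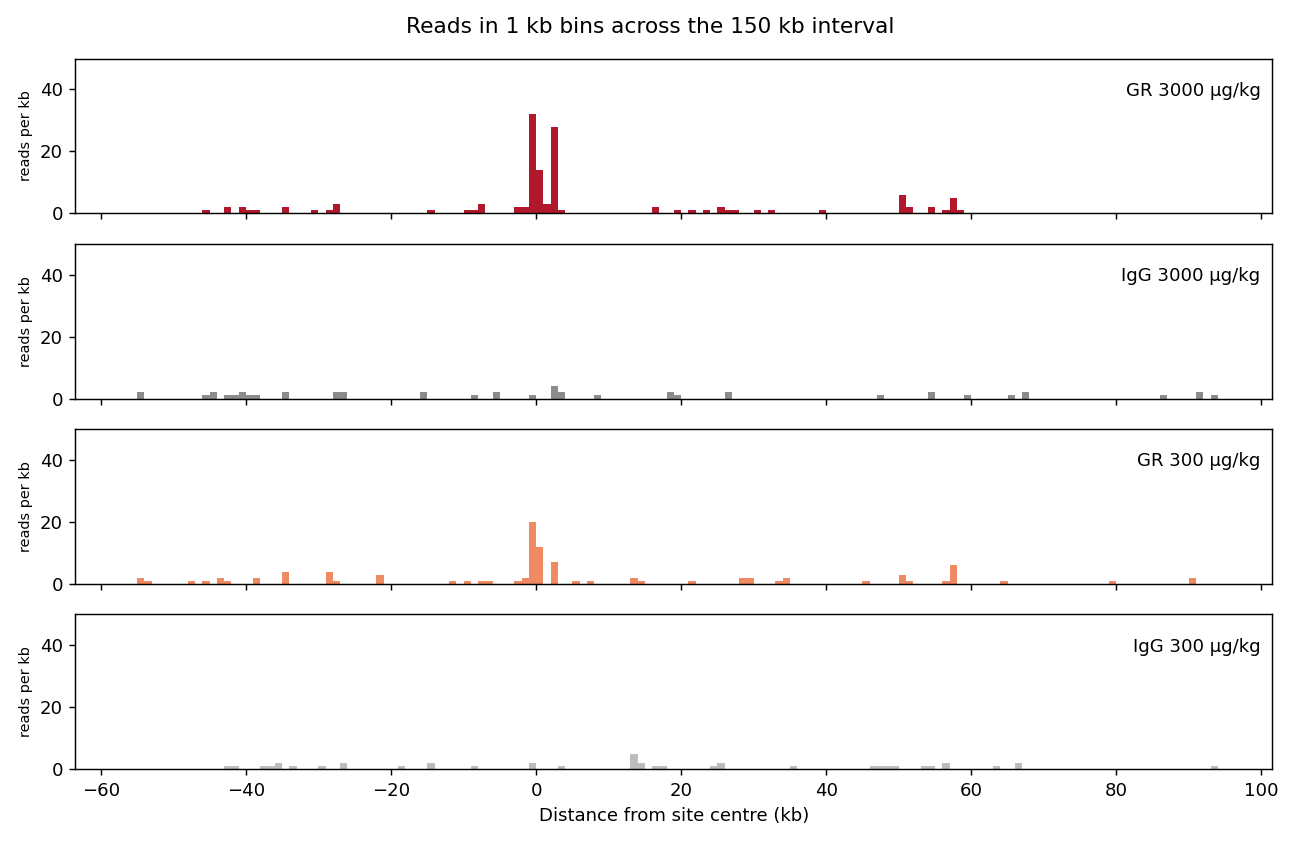
Reads of each library in bins of 1 kb (vertical axis, reads per kb) by distance from the site centre (horizontal axis, kb), 1 panel per antibody and dose. The GR libraries rise at the site and again 2 kb to its right, with bins of up to 32 reads at the high dose and 20 at the low dose, whereas no IgG bin holds more than 5 reads.

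The reads of the site lay in a narrow band. With 5′ ends moved 75 bases in the direction of reading, 41 of 45 GR reads at the high dose and 27 of 28 at the low dose fell within 100 bases of the site centre, where both IgG libraries held 0 reads. Plus-strand ends lay to the left of minus-strand ends at both doses, the order that fragments read from both ends leave in any library. These values come from ends within 400 bases of the centre. At the high dose the 17 plus-strand ends had their median at -50 bases from the centre and the 28 minus-strand ends at 32.5 bases, a distance of 82.5 bases. At the low dose the 11 plus-strand ends had their median at -70 bases and the 17 minus-strand ends at 34 bases, a distance of 104 bases.

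Both distances lay inside the usual range of other regions. Among 227 regions outside the interval with at least 20 GR reads at the high dose the median distance was 94 bases, and the middle 90% ran from 44.4 to 148.4 bases. Among 76 regions with at least 10 GR reads at the low dose the median was 89 bases (42.9 to 137.4). The midpoints between the strands stood at -8.75 and -18 bases from the site centre at the high and the low dose, that is, within 10 bases of each other. The IgG reads of the site did not share this position: the single read at the high dose was a minus-strand end at -57 bases, and the reads at the low dose were a plus-strand end at -204 and a minus-strand end at -96 bases.

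**Figure D2:**
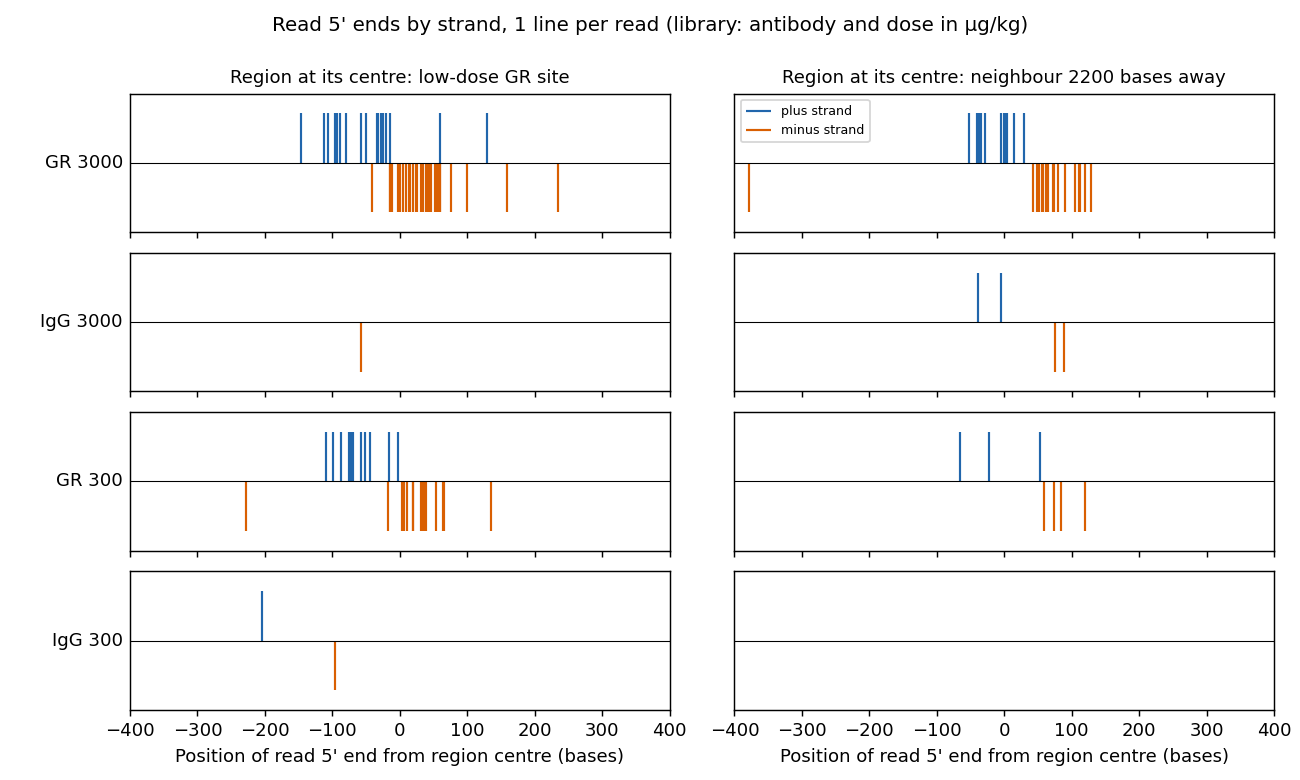
Read 5′ ends around the centre of the site (left) and of its nearest neighbour (right), 1 line per read, by position in bases, with plus-strand ends drawn upwards and minus-strand ends downwards, 1 row per library. In both GR libraries plus-strand ends of the site gather left of the minus-strand ends, with medians 82.5 bases apart at the high dose and 104 bases apart at the low dose.

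No library held more than 1 read at a position and strand, so each read of the site had an end of its own. Within 150 bases of the centre, 43 of 602 positions and strands (7.14%) were filled at the high dose and 27 (4.49%) at the low dose. The GR libraries shared 4 ends within 400 bases of the centre, and no end there was shared between a GR and an IgG library. Over the chromosomes they shared 509 ends, 0.111% of the library at the low dose. Plus- and minus-strand reads often came in close pairs, as the ends of an amplified fragment would. With opposite ends 50 to 140 bases apart counted once as a fragment, the site held 28 GR and 1 IgG fragments at the high dose and 17 GR and 1 IgG fragments at the low dose. These GR counts equal the numbers of minus-strand reads, and in a dense region reads of separate fragments can also be joined this way.

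Regions were called over the whole genome from 300-base windows whose GR reads exceeded the local IgG level (Poisson p at most 1e-05, at least 4 reads), which gave 1510 regions at the low dose and 6255 at the high dose. By GR reads the site was number 1 at the low dose, where the median region held 4 reads, and number 19 at the high dose, where the median was 6 and the highest region held 85. The first of these ranks is what the site was chosen for, and the lists differ in length, so that the ranks show no change between doses. Next to it at the low dose stood chromosome 1 from 226342801 to 226343400 and chromosome 11 from 77875501 to 77876100 with 24 GR reads each and chromosome 20 from 27270801 to 27271400 with 23.

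The dose ratio of the site, GR reads at the high over the low dose at equal library size, was 1.60 (0.976 to 2.66) and its interval included 1. On fragments it was 1.58 (0.833 to 3.07). Outside the interval 20 regions had 41 to 49 GR reads at the high dose, close to the 45 of the site. Their GR reads at the low dose ran from 2 to 23 with a median of 9.5, and in sum their dose ratio was 3.98 (3.43 to 4.63). These regions were picked by their high-dose GR reads, so that this ratio is high in part by choice. The site's 28 reads lay above all 20, but the site was taken for its high count at the low dose, so that this order follows from the choice. With 1 library per dose, a difference between doses and one between immunoprecipitations cannot be told apart.

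**Figure D3:**
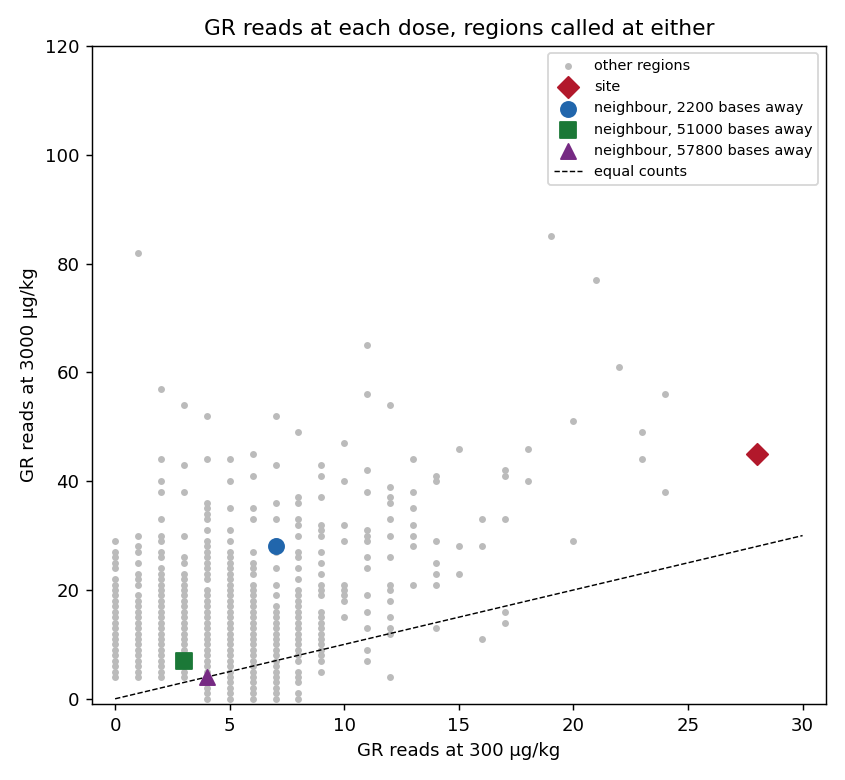
GR reads at the low dose (horizontal axis) against GR reads at the high dose (vertical axis) in the 7280 regions called at either dose, 1 grey point per pair of counts, with the site (28 and 45 reads) and its 3 neighbours marked and a dashed line of equal counts. The site is the point farthest to the right, and the nearest neighbour (7 and 28 reads) lies among the grey points.

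Weaker neighbours lay towards higher coordinates by this call. Outside the site 3 regions of the interval were called at the high dose and 2 of these also at the low dose. Over the genome the exchange of GR and IgG libraries gave 20.8% as many regions as GR at the high dose and 63.2% as many at the low dose. Of the exchanged regions 0 fell in the interval, where their mean density would place 0.0717 and 0.0526. In windows, 9 of 1494 (0.602%) were called outside the site at the high dose, against 0.0567% of windows in the genome. At the low dose 4 windows (0.268%) were called, against 0.011% in the genome. Overlapping windows share reads, so these shares describe few regions.

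The nearest neighbour lay 2200 bases from the site, centre to centre, at chromosome 10 from 55858401 to 55858900. It held 28 GR reads at the high dose (18.6 to 40.5) and 7 at the low dose (2.81 to 14.4), and its IgG reads were 4 at the high dose (1.09 to 10.2) and 0 at the low dose (0 to 3.69). The high-dose GR library stood above the other 3 with no overlap of intervals. The interval of the low-dose GR library overlapped those of both IgG libraries, its own control included. The neighbour was number 98 of 6255 regions at the high dose, with 11 regions at that count, and number 151 of 1510 at the low dose, with 61 at that count.

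Each dose was also used to read the neighbour as chosen at the other dose. As called at the low dose it held 28 GR against 4 IgG reads at the high dose, a ratio of 6.97 (2.44 to 27.3; exact binomial test, two-sided, adjusted p = 9.66e-05 over 5 such readings of the neighbours). As called at the high dose it held 7 GR against 0 IgG reads at the low dose (exact binomial adjusted p = 0.0391). On fragments the counts were 17 against 2 at the high dose, a ratio of 7.34 (1.74 to 65.5), and 4 against 0 at the low dose, where the lower bound of the ratio, 0.643, no longer excluded 1. Its call at the low dose depended on the control library: against high-dose IgG the region was not called.

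Between doses the GR reads of this neighbour differed by a ratio of 3.98 (1.70 to 10.8). By an exact two-sided binomial test with Benjamini-Hochberg adjustment over all 7280 regions the adjusted p was 0.0127, and 9.6% of all regions were called with more GR reads at the high dose by this test and 0.0275% with more at the low dose. The tested regions had been called on these same GR reads, 6255 at the high dose and 1510 at the low dose. The p-value and the shares therefore follow in part from that choice. The dose call of this neighbour was lost on fragments, where 17 stood against 4 (exact binomial adjusted p = 0.0994). The ratio there was 4.07 (1.33 to 16.6, not adjusted), on fewer counts. For regions of like count the values were as follows: 70 regions outside the interval with 25 to 31 GR reads at the high dose had a median of 5 at the low dose (0 to 20) and a summed ratio of 4.34 (3.91 to 4.82). These regions too were picked by their high-dose GR reads, so that their ratio is high in part by choice. The neighbour's interval of 1.70 to 10.8 overlapped the site's interval of 0.976 to 2.66, and whether their dose ratios differ was not tested, since the site had been chosen on these reads.

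Its ends were read within 400 bases of its centre, which takes in 1 minus-strand end outside the region. At the high dose 11 plus-strand and 18 minus-strand ends had medians 72.5 bases apart, and at the low dose the 3 plus-strand and 4 minus-strand ends had medians 101 bases apart. The midpoints fell at 32.2 and 28.5 bases from the region's centre. The 4 IgG reads at the high dose lay at the same place, with 2 ends on each strand, medians 103 bases apart and a midpoint of 30 bases, and they merged to 2 fragments. What these IgG reads stand for was not tested.

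Between the site and the nearest neighbour the signal fell back. The 1600 bases from 55856801 to 55858400 held 3 reads in each GR library and 0 in each IgG library, and the 1000 bases before the site held 1 read in each GR library and 0 in each IgG library. Site and neighbour were therefore separate maxima. Of the 6251 regions called at the high dose outside the interval, 364 (5.82%; 5.26 to 6.43%) had another within 2200 bases, and of the 227 with at least 20 GR reads 31 had one (13.7%; 9.47 to 18.8%).

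The far neighbours were weak. The region from 55907201 to 55907700, 51000 bases from the site, held 7 GR reads at the high dose (2.81 to 14.4) and 3 at the low dose (0.619 to 8.77). The region from 55914001 to 55914500, 57800 bases from the site, held 4 GR reads at each dose (1.09 to 10.2). IgG reads were 0 (0 to 3.69) in both regions at both doses, and the intervals of GR and IgG overlapped. Read at the dose that did not choose them, neither passed the test against IgG (exact binomial adjusted p = 0.25 and 0.156). The counts of these regions there were 3 against 0 and 4 against 0 reads, too few for this test to pass at any split. Neither was called for a dose difference by the test over all regions, with ratios of 2.32 (0.530 to 13.9; exact binomial adjusted p = 0.422) and 0.995 (0.185 to 5.34; adjusted p = 1, exact binomial). These intervals leave room for differences of several-fold. A region of 4 reads is common at either dose: 1907 of 6255 regions at the high dose and 917 of 1510 at the low dose had that count.

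**Figure D4:**
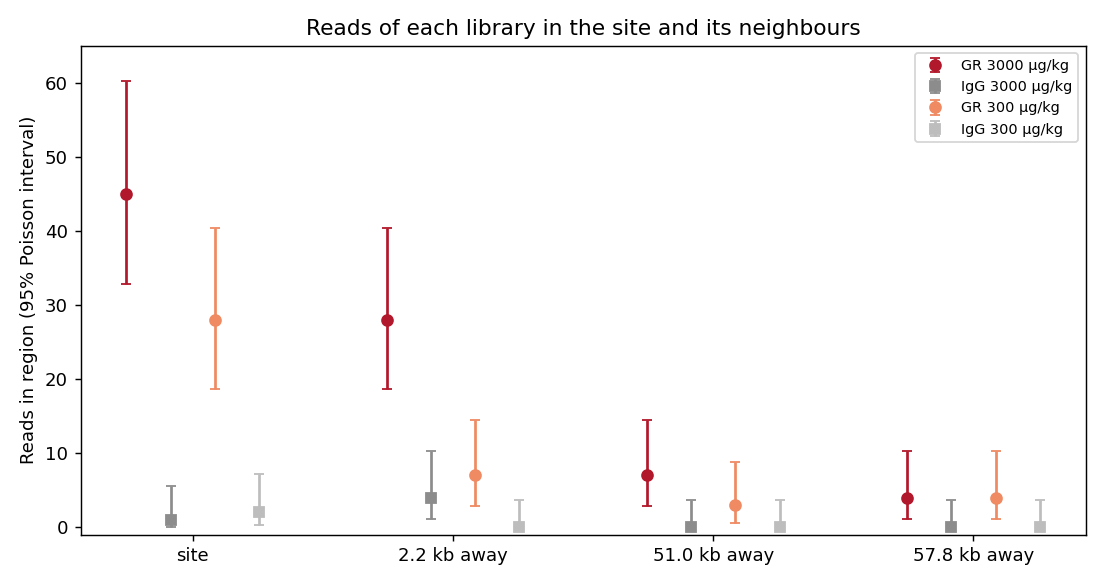
Reads of each library (vertical axis) in the site and its 3 neighbours (horizontal axis, by distance from the site), 1 point per library with its exact 95% Poisson interval. At the site and the nearest neighbour the GR libraries hold 7 to 45 reads, and the far neighbours hold 3 to 7 GR reads. The GR intervals of the far neighbours overlap those of IgG, as does the low-dose GR interval of the nearest neighbour.

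A looser call (Poisson p at most 0.001, at least 3 reads) was used to look for still weaker neighbours. At the high dose it returned the same 3 places and no other, with 11 of 1494 windows outside the site (0.736%) called against 0.133% in the genome. At the low dose it returned 6 places, with 15 windows (1.00%) against 0.053% in the genome. These were the 3 neighbours and 3 further places, at 55827601 to 55828000 with 4 GR reads, at 55834901 to 55835300 with 3 and at 55856901 to 55857400 with 3. None of the 3 further places held a GR read at the high dose or an IgG read at either dose. The loose call weighs little by itself: exchanging the GR and IgG libraries gave 84.3% as many regions over the genome at the low dose and 45.8% at the high dose. Of the exchanged regions 0 fell in the interval, where their mean density would place 0.340 and 0.370.

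GR reads exceeded IgG reads also in the interval outside the site. Leaving out the site with 1000 bases on each side, the interval held 85 GR and 45 IgG reads at the high dose, a ratio of 1.88 (1.30 to 2.76; exact binomial test, adjusted p = 0.0023 over 4 comparisons). At the low dose it held 65 GR and 39 IgG reads, a ratio of 1.66 (1.10 to 2.54; exact binomial adjusted p = 0.0277). Without the 3 neighbours the counts were 46 and 41 at the high dose and 51 and 39 at the low dose, and the ratios of 1.12 (0.717 to 1.74) and 1.31 (0.844 to 2.03) no longer passed (exact binomial adjusted p = 0.891 for both). The neighbours had been called for their GR excess, so that leaving them out lowers these ratios by construction. The dose difference of the GR libraries passed in neither span, with ratios of 1.30 (0.931 to 1.83) with and 0.898 (0.589 to 1.36) without the neighbours (exact binomial adjusted p = 0.161 and 0.891).

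The interval was denser than an even spread also in IgG. All of its parts outside the site and neighbours held 47 GR and 41 IgG reads at the high dose and 55 and 39 reads at the low dose. These were 1.85 and 1.62 times the even expectation of the whole interval at the high dose and 2.17 and 1.54 times at the low dose. The whole interval is slightly wider than these parts, so that the values are slightly low. Without the site and the bases left out around it, the interval held 85 GR and 45 IgG reads at the high dose. At the low dose it held 65 and 39. A difference of the GR to IgG effect between doses was not detected there (Fisher's exact test, p = 0.682, adjusted p = 1 over 4 such tests). The other tests took each neighbour singly and could not decide this. Both far neighbours held 0 IgG reads at both doses, which leaves this test no other result. The nearest neighbour held only 4 IgG reads at the high dose and 0 at the low dose.

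No genome of build rn4 was used here, so the sequence under the site was not read. The Per1 promoter in RefSeq's build GRCr8, 250 bases before to 50 bases after the start, was searched on both strands for the response element, written as AGAACA, 3 bases of any kind and TGTTCT, and for TGTTCT alone. Its best match had 3 mismatches in the 12 fixed letters, and 14.7% of the 33469 promoters in that table held a match at least as good. It held TGTTCT 0 times on either strand, against 20.7% of promoters with at least 1. Whether this window overlaps the site was not tested, and no match says only that these letters are not in this window.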

How the data were processed

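Per the labels, the reads come from GR and IgG ChIP-seq of pooled rat hippocampal chromatin. In the deposited files each line is 1 aligned read, counted as 1. The submitters' processing notes name build rn4, bedtools and MACS without roles. The aligner, tool versions and filters were not given in the sources used here. The deposited counts were equal in all 4 libraries, so libraries had been brought to a common number of reads before deposit, and how was not stated. Preparation for sequencing is described in the labels for the libraries at 3000 µg/kg only.

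From these counts, reads on chromosomes 1 to 20 and X were moved 75 bases, counted in 300-base windows every 100 bases and compared (Poisson) with the larger of the genome mean and the IgG level of the same dose in 1, 5 and 10 kb. Ratios were scaled to library size with Clopper-Pearson 95% intervals. Calls were made over the whole genome of 2718671228 bases, and regions in the interval were all named. Scripts ran in Python 3.11.15 with scipy 1.17.1 and were tested on simulated data. The interval, the site and the lists were chosen with earlier results of these data known. The readings of neighbours at the other dose and the comparison with regions of like count were added after the data were seen.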

Additional observations from a re-analysis of the deposited data

Results flagged for a closer look

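The GR libraries of the doses differed at the nearest neighbour of the site, chromosome 10 from 55858401 to 55858900, with 28 reads at the high dose against 7 at the low dose (exact binomial adjusted p = 0.0127 over 7280 regions). It is listed for this difference between 1 library of each dose, which 9.6% of all regions showed in the same direction. The tested regions had been called on these same GR reads, more of them at the high dose, so that the difference follows in part from that choice. On fragments, 17 against 4 with a ratio of 4.07 (1.33 to 16.6, not adjusted), the adjusted p was 0.0994 (exact binomial).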

How the results depend on the processing

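Of 108 recomputed values 86 kept their direction and their side of the threshold or stayed within counting error. Some of these could not change, such as the read counts of the site under another library size. The dose ratio of the site stayed between 1.54 and 1.64 in every setting tried. Each setting recounted the same reads or part of them, so that this range is no independent support. Its GR reads at the high and the low dose moved from 45 and 28 to 28 and 17 on merged fragments, to 17 and 11 on plus-strand reads and to 28 and 17 on minus-strand reads, each of which counts fewer reads by construction. On plus-strand reads IgG at the high dose fell to 0, so that no GR to IgG ratio could be computed there. Requiring 8 reads left 1 neighbour at the high dose and 0 at the low dose. At the low dose 1 neighbour was left in each of 4 other settings, but not the same one. It was the nearest neighbour with p at most 1e-07, with 600-base windows and on fragments. With high-dose IgG as control it was the far neighbour 57800 bases from the site. The loose call at the low dose fell from 6 to 2 places on fragments. The causes of these losses were not tested.

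The GR to IgG ratio outside the site no longer passed with 5000 bases left out on each side, at 1.32 for the high and 1.42 for the low dose, with 300000 bases on each side, at 1.28 and 1.09, or without the neighbours, at 1.12 and 1.31. On fragments it no longer passed at the low dose, at 1.49. The first and the third setting leave out the nearest neighbour, which had been called for its GR excess. The dose difference of the neighbours went from 1 call to 0 on fragments. The setting without the neighbours and the alternatives for this dose test were chosen after seeing the data. No paired analysis was possible because each group held 1 library. At this depth the interval of a count of 0 reaches 3.69 reads, so that regions of 3 or 4 GR reads are not resolved from background.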

Other observations

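The densest kb of IgG reads in the interval lay 13 kb to the right of the site centre and was in the IgG library at the low dose, with 5 reads against 2 GR reads of that dose and 0 reads of either antibody at the high dose. It was not called when the GR and IgG libraries were exchanged. The 35500 bases after the last neighbour, from 55914501 to the end of the interval, held 1 GR and 8 IgG reads at the high dose and 4 GR and 3 IgG reads at the low dose.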
